A study of Mus musculus with 23 samples.

Results

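The genes described here are 34 genes known as markers of brain regions other than the hippocampus: 10 of cerebellum, 6 of brainstem and spinal cord, 7 of striatum, 6 of thalamus and 5 of neocortex or subiculum. They were taken by symbol from a list, out of 54232 gene identifiers counted in every library, of which 40290 had reads. The values that chose them were their CPM in each library (a gene's reads scaled to the library's total), so the CPM values below describe the members and are given with no test.

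The libraries hold poly(A)-selected RNA of dissected hippocampi from C57BL/6 mice, and the study asked how the histone demethylase LSD1 and mutant tau interact. At 9 months there were 4 libraries of mice with the P301S tau transgene and 1 deleted Lsd1 allele (labelled PS19;Lsd1Δ/+, here PS19_Lsd1het), 2 of Lsd1 heterozygotes without the transgene (Lsd1Δ/+, here Lsd1het), 4 of mice with the transgene and an intact Lsd1 gene (PS19) and 4 of wild-type mice (WT). At 11 months every mouse had received a neuron-specific adeno-associated virus in the hippocampus: 3 libraries came from PS19 mice with LSD1 virus (PS19_rescue), 3 from PS19 mice with HA control virus (PS19_HA) and 3 from wild-type mice with HA control virus (WT_HA). The PS19 transgene carries human tau with the P301S mutation under a prion protein promoter and is a widely used model of tauopathy. Nothing in the labels ties each library to its own animal. The p-values below therefore cover the variation among these libraries, part of which may be technical.

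Regions of the vertebrate brain keep distinct sets of transcription factors into adulthood. Hox genes mark positions along the hindbrain and spinal cord, engrailed genes the border of midbrain and hindbrain, and Zic and Barhl genes the granule neurons of the cerebellum. Medium spiny neurons of the striatum are recognised by dopamine and adenosine receptors and their signalling proteins, and thalamic relay neurons by Tcf7l2 and the vesicular glutamate transporter encoded by Slc17a6. In whole-tissue RNA the levels of these genes can vary with how much transcript of each region a library holds. They can also vary with transcription of the same genes in hippocampal cells. Fewer cells of a type and less RNA per cell cannot be told apart.

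Libraries held 15451494 to 24644977 counted reads, so that 3 reads, the most that a count of 0 allows, correspond to 0.122 to 0.194 CPM. The share of reads from mitochondrially encoded genes was 16.1% for PS19 replicate 3, 33.9% for WT replicate 3 and 16.2% for WT_HA replicate 2. It lay between 2.86% and 6.04% for the remaining libraries. Kdm1a, the gene of LSD1, had 36.9, 38.8, 59.7 and 47.1 CPM in PS19_Lsd1het libraries and 36.4 and 35.1 CPM in Lsd1het libraries, against 39.8 to 59.2 CPM in WT libraries. The highest of the PS19_Lsd1het values, that of replicate 3, exceeded every WT value although its label gives a deleted allele. In PS19_rescue it had 1883 to 11084 CPM, against 63.9 to 66.1 CPM in PS19_HA.

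The members were unevenly spread over the libraries. PS19_Lsd1het replicate 2 held the highest level of 17 members, among them all 10 cerebellar and all 6 brainstem and cord markers. WT replicate 2 came second for Fat2, Cbln1, En2, Pcp2 and Skor1. Replicate 3 of each 11-month group was the highest of its group for all 6 thalamic and all 7 striatal markers. WT replicate 4 and PS19_Lsd1het replicate 3 carried high striatal markers at 9 months. PS19_HA replicate 3 was highest for 3 of the 5 cortical or subicular markers. Counted as members at 2-fold or more of the median of the 23 libraries with over 3 reads, the numbers were 22 of 34 in PS19_Lsd1het replicate 2, where 9.77% of all genes with reads passed the same rule. They were 20 in PS19_rescue replicate 3 (5.38% of all genes), 17 in PS19_HA replicate 3 (6.52%), 17 in WT_HA replicate 3 (4.12%), 10 in WT replicate 2 (4.42%), 7 in PS19_Lsd1het replicate 3 (4.06%) and 5 in WT replicate 4 (2.97%). No other library had more than 4. The map of the 34 members by library shows these patterns.

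**Figure D1:**
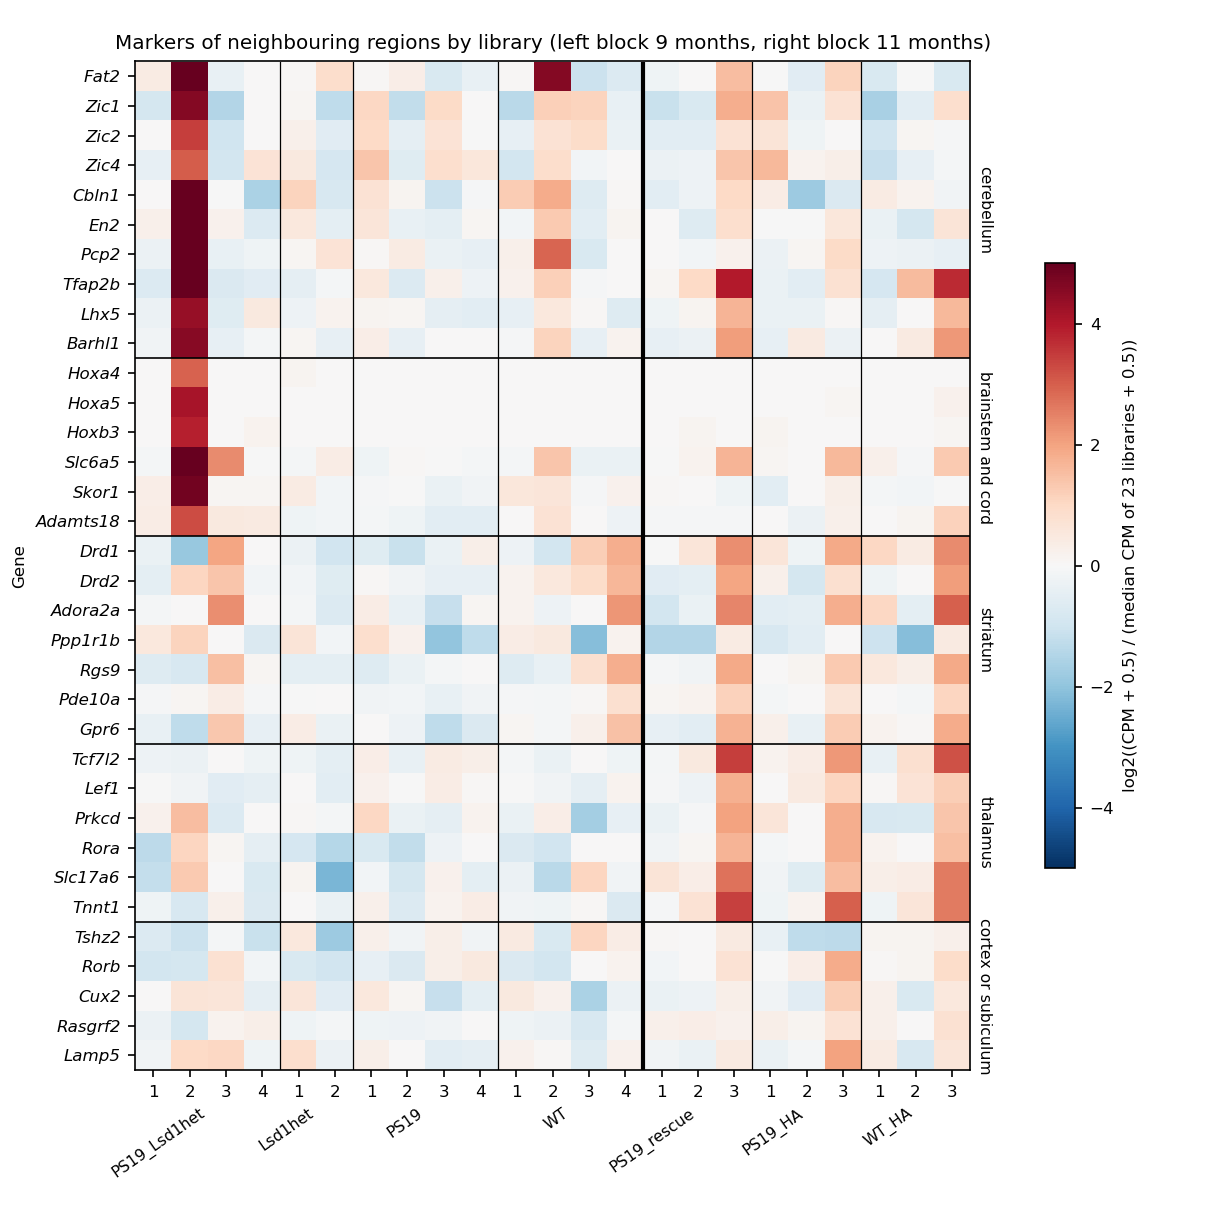
Level of each of the 34 members (rows, grouped by region) in each of the 23 libraries (columns, numbered by replicate within group) as log2 of CPM plus 0.5 over the median of the 23 libraries plus 0.5. The column of PS19_Lsd1het replicate 2 is dark red over the cerebellar and brainstem rows, and replicate 3 of each 11-month group is red over the striatal and thalamic rows.

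The cerebellar markers stood far above all other libraries in PS19_Lsd1het replicate 2. Fat2, an atypical cadherin of cerebellar granule neurons (chromosome 11, 55250609 to 55336564, GRCm38), had 0.928, 587, 0.324 and 0.577 CPM in PS19_Lsd1het replicates 1 to 4 and 0.619 and 1.44 CPM in Lsd1het. It had 0.620, 0.827, 0.123 and 0.321 CPM in PS19, against 0.606, 25.4, 0 and 0.166 CPM in WT. At 11 months it had 0.422, 0.563 and 2.64 CPM in PS19_rescue and 0.553, 0.222 and 1.78 CPM in PS19_HA, against 0.126, 0.56 and 0.122 CPM in WT_HA. The 587 CPM rest on 14454 reads (95% Poisson interval 578 to 597 CPM, which covers counting error only), while the other 22 libraries together held 886 Fat2 reads, 596 of them in WT replicate 2.

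The other granule and Purkinje markers were also highest in PS19_Lsd1het replicate 2. Cbln1, a synapse organiser that granule neurons secrete, had 566 CPM in PS19_Lsd1het replicate 2 and 28.9 CPM in WT replicate 2, against a median of 7.59 CPM over the 22 libraries other than the first. Pcp2, a Purkinje cell gene, had 192 CPM and 8.17 CPM in the same libraries, against a median of 0.613 CPM. En2, an engrailed homeobox gene, had 127 CPM and 5.07 CPM, against a median of 1.73 CPM. Barhl1, a granule neuron homeobox gene, had 15.3 CPM in PS19_Lsd1het replicate 2, and Lhx5, a LIM homeobox gene active in Purkinje cell development, had 16.9 CPM, against medians of 0.154 and 0.299 CPM in the others. Tfap2b, a transcription factor of cerebellar GABAergic interneurons, had 46.8 CPM there. For these last genes WT replicate 2 was not the second highest library: it had 0.937 CPM of Barhl1, 0.724 CPM of Lhx5 and 1.87 CPM of Tfap2b, while PS19_rescue replicate 3 had 2.31 CPM of Barhl1, 2.31 CPM of Lhx5 and 15.7 CPM of Tfap2b. Summed over the 10 cerebellar markers, PS19_Lsd1het replicate 2 had 2441 CPM, 42.8-fold the median of 57.1 CPM over all 23 libraries.

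A second list of 12 cerebellar genes gave the same library: 11 of the 12 were highest in PS19_Lsd1het replicate 2, where 12.2% of all genes with reads had their highest value. Cbln3, which granule neurons secrete, had 882 CPM there, against 32.8 CPM in WT replicate 2 and at most 3.21 CPM in any other library. Car8, a Purkinje cell gene, had 579 CPM and Grm4, a metabotropic glutamate receptor of granule neurons, 537 CPM, against 27.7 and 42.9 CPM in WT replicate 2. These genes were picked as textbook cerebellar markers with earlier results of the data known, so they describe the library and are not independent support.

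Promoters of Fat2 and Tfap2b are shown since both genes were highest in PS19_Lsd1het replicate 2, while Tfap2b was also high in 11-month libraries that had little Fat2. The windows are 300 bases around the transcription start of the RefSeq promoter table on GRCm38.p6, on the strand of the gene. They lie at chr11:55312208-55312507 for Fat2 (minus strand) and chr1:19211804-19212103 for Tfap2b (plus strand). Both lie wholly inside the GENCODE gene, past its annotated start, so the motif and CpG counts are of these windows alone. Capitals would mark TATAAA or the GC-box core GGGCGG on either strand; these 2 motifs do not overlap each other. Neither window holds one, while 13.6% of 32851 RefSeq promoters hold TATAAA and 35.7% hold GGGCGG.
Fat2: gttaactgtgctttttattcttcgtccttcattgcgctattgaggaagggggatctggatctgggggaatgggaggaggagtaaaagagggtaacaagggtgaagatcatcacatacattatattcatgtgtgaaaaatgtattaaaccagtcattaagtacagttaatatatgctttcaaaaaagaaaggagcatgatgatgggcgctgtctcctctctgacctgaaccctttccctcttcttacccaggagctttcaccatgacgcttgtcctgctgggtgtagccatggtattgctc
Tfap2b: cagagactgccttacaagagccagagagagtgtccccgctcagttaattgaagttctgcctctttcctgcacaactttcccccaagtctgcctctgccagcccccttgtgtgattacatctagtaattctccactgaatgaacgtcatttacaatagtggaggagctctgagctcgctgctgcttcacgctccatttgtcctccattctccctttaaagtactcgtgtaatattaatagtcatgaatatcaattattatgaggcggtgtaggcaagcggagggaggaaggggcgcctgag
The Fat2 window holds 4 CpG sites and the Tfap2b window 8, beside a median of 7 over all promoters.

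The 3 Zic genes, zinc-finger transcription factors of cerebellar granule neurons that also mark midline forebrain tissue and the meninges, were high in more libraries than the other cerebellar markers. Zic1 had 14.6, 671, 9.58 and 27.9 CPM in PS19_Lsd1het, 29.7 and 11.2 CPM in Lsd1het and 56.7, 11.4, 54.1 and 27.7 CPM in PS19, against 10.6, 64.1, 60.7 and 21.5 CPM in WT. At 11 months it had 12.49, 15.9 and 98.6 CPM in PS19_rescue and 75.9, 21.7 and 45.5 CPM in PS19_HA, against 8.64, 18.9 and 49.6 CPM in WT_HA. PS19 replicate 1 and WT replicate 3 thus had over 50 CPM of Zic1 with 0.62 and 0 CPM of Fat2. Zic2 had 176 CPM and Zic4 43.8 CPM in PS19_Lsd1het replicate 2. Their next libraries were PS19 replicate 1 at 31.4 CPM for Zic2 and PS19_HA replicate 1 at 16.1 CPM for Zic4, in neither of which Fat2 passed 0.7 CPM. Zic1 and Zic4 are transcribed in opposite directions on chromosome 9 and their annotated genes overlap, so without a known strand setting their reads can mix. Their windows, chr9:91365719-91366018 on the minus strand and chr9:91368722-91369021 on the plus strand, are shown since both genes were high in libraries with little Fat2, and the RefSeq starts lie 3204 bases apart. The Zic1 window spans the start of its GENCODE gene, while the Zic4 window lies wholly inside its gene, past the annotated start. Capitals mark GGGCGG on either strand, which the Zic1 window holds 3 times and the Zic4 window not at all.
Zic1: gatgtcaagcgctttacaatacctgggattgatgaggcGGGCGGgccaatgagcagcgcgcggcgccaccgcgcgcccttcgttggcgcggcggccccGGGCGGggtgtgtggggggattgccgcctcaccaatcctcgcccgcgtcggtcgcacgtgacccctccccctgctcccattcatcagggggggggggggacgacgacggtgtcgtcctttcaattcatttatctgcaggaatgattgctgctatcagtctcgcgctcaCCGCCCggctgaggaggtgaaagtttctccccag
Zic4: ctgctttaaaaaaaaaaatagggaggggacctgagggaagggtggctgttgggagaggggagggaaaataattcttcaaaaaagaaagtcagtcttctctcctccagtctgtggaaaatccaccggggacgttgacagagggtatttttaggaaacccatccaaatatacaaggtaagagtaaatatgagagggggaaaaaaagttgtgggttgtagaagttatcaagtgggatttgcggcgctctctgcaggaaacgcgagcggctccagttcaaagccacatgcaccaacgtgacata
The Zic1 window holds 31 CpG sites and 65.3% G or C, the Zic4 window 8 and 46%.

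Brainstem and cord markers were close to absent everywhere but in PS19_Lsd1het replicate 2. Hoxa5, a homeobox gene of the posterior hindbrain and cord (chromosome 6, 52201754 to 52204587), had 204 reads or 8.29 CPM in that library (95% Poisson interval 7.19 to 9.51 CPM) and 3 reads in the other 22 together, with 20 libraries at 0. Hoxa4 had 83 reads against 1 in the other 22 libraries, and Hoxb3 169 reads against 4. The annotated Hoxa3 gene overlaps both Hoxa4 and Hoxa5 on the same strand, so the split of reads between these genes is uncertain. Slc6a5, the glycine transporter of inhibitory neurons in brainstem and cord, had 0.0977, 177, 2.78 and 0.128 CPM in PS19_Lsd1het replicates 1 to 4. In the remaining groups it never exceeded 1.54 CPM. Skor1, a transcriptional corepressor of dorsal cord neurons, had 19.6 CPM in PS19_Lsd1het replicate 2, against at most 0.596 CPM elsewhere. Adamts18, a secreted metalloprotease placed in this set by its order in the list, was present in every library, at 0.678 CPM or more, and had 15.8 CPM there. The 6 genes summed to 231 CPM in PS19_Lsd1het replicate 2, 144-fold the median of the 23 libraries.

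In a second list of 20 brainstem and cord genes, 14 were highest in the same library. Hoxb5 had 21.9 CPM there and 1 read in all other libraries together, and Glra1, a glycine receptor subunit, 34.7 CPM. Tph2, the serotonin-synthesis enzyme of the raphe, did not take part: it had 1.46 CPM in PS19_Lsd1het replicate 2, within its range of 0.36 to 2.33 CPM over the others. Tal1, a transcription factor of midbrain and hindbrain GABAergic neurons, had 1.79 CPM there, also within its range at 9 months of 1.11 to 3.25 CPM.

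The Hoxa5 window (chr6:52204538-52204837, minus strand) is shown as an example of a promoter whose gene was counted in 1 library of 23 at more than 3 reads. It holds no TATAAA or GGGCGG on either strand and 29 CpG sites.
Hoxa5: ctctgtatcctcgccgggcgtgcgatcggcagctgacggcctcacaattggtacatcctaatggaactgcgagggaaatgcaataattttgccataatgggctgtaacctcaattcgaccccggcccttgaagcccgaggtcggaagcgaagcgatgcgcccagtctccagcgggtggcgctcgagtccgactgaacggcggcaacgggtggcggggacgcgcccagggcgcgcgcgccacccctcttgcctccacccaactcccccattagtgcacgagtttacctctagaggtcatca

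WT replicate 2 had smaller excesses of the same cerebellar genes. Above the median of the 21 remaining libraries, Fat2 was higher by 24.8 CPM in WT replicate 2 and by 587 CPM in PS19_Lsd1het replicate 2, so the first excess was 4.23% of the second. Over all 10 cerebellar members this percentage ran from 2.69% for En2 to 12.6% for Zic4. Over the 18 cerebellar genes of both lists that were at least 10-fold and 10 CPM above that median in PS19_Lsd1het replicate 2, a filter that uses the library the percentage is taken of, its median was 4.32% and its range 2.69% to 13.3%. Of the 6 brainstem and cord members, Hoxa4, Hoxa5 and Hoxb3 had 0 reads in WT replicate 2, and the percentage was 0.577% for Slc6a5, 2.01% for Skor1 and 8.18% for Adamts18. In the second brainstem and cord list it was 0.280% for Glra1 and 4.02% for Dbh. For Hoxb2 it was 5.24%, on 2 reads. Hoxa2, Hoxa3, Hoxb5, Hoxb6, Hoxc4, Hoxc5 and Hoxd3 of that list had 0 reads in WT replicate 2. These genes of the second list were named after their values were seen. Both brainstem and cord lists were then read at an excess of 1 CPM or more in PS19_Lsd1het replicate 2. Among those genes only Adamts18 and Hoxb2 lay above the cerebellar median. All Hox genes named here except Hoxb5, and Dbh, had under 10 CPM in PS19_Lsd1het replicate 2. They fall outside the filter of 10-fold and 10 CPM, as does Zic4. The plot of both excesses shows the brainstem and cord genes beside the cerebellar ones.

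**Figure D2:**
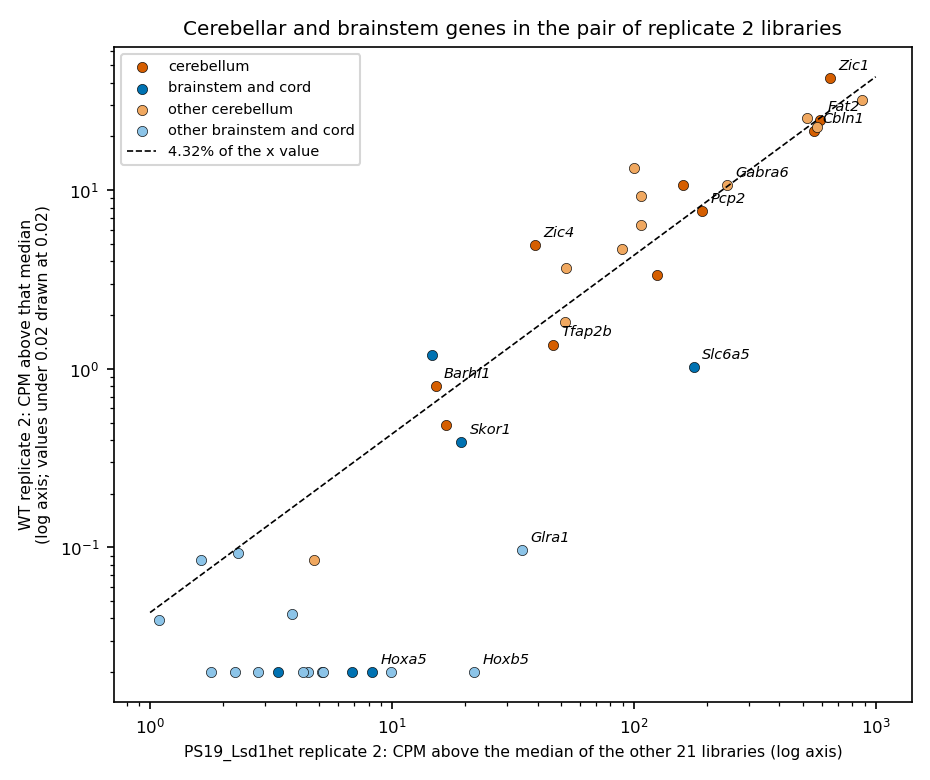
CPM above the median of the other 21 libraries in WT replicate 2 (vertical, log axis) against the same in PS19_Lsd1het replicate 2 (horizontal, log axis), with 1 point for each cerebellar or brainstem and cord gene of the members and of the second lists that exceeds the median by 1 CPM or more in PS19_Lsd1het replicate 2; values under 0.02 are drawn at 0.02. The dashed line is at 4.32%. Of the brainstem and cord genes only Adamts18 and Hoxb2 lie above it, and Hoxa5, Hoxb5, Glra1 and Slc6a5 are among those below.

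PS19_Lsd1het replicate 2 also had less of the labelled tissue's own transcripts. Summed over 12 hippocampal genes it had 440 CPM, the lowest of the 23 libraries, whose median was 1281 CPM. Of the 12, 8 were at or under the median divided by 2, where 9.22% of genes with a median of 1 CPM or more were. Neurod6, a transcription factor of pyramidal neurons, had 22.8 CPM there, against 62.3 to 498 CPM in the others. Zbtb20, a regulator of hippocampal identity, had 188 CPM, against 254 to 903 CPM. Hippocampal genes were low but present in this library. The hippocampal sum was 1102 CPM in WT replicate 2.

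Other regions' members were mixed in PS19_Lsd1het replicate 2. Rora, a nuclear receptor of thalamic and Purkinje neurons, had 150 CPM, Prkcd, a protein kinase C isoform of thalamic relay neurons and some Purkinje cells, 105 CPM, and Slc17a6 62.2 CPM, each the highest at 9 months. In the same library Tcf7l2 had 5.65 CPM, Lef1 3.78 CPM and Tnnt1 0.447 CPM, none above its median over all 23 libraries. Ppp1r1b, the DARPP-32 phosphoprotein of medium spiny neurons, had its highest value of all libraries there at 157 CPM, while Drd1 at 1.02 CPM and Gpr6 at 0.244 CPM had their lowest.

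**Figure D3:**
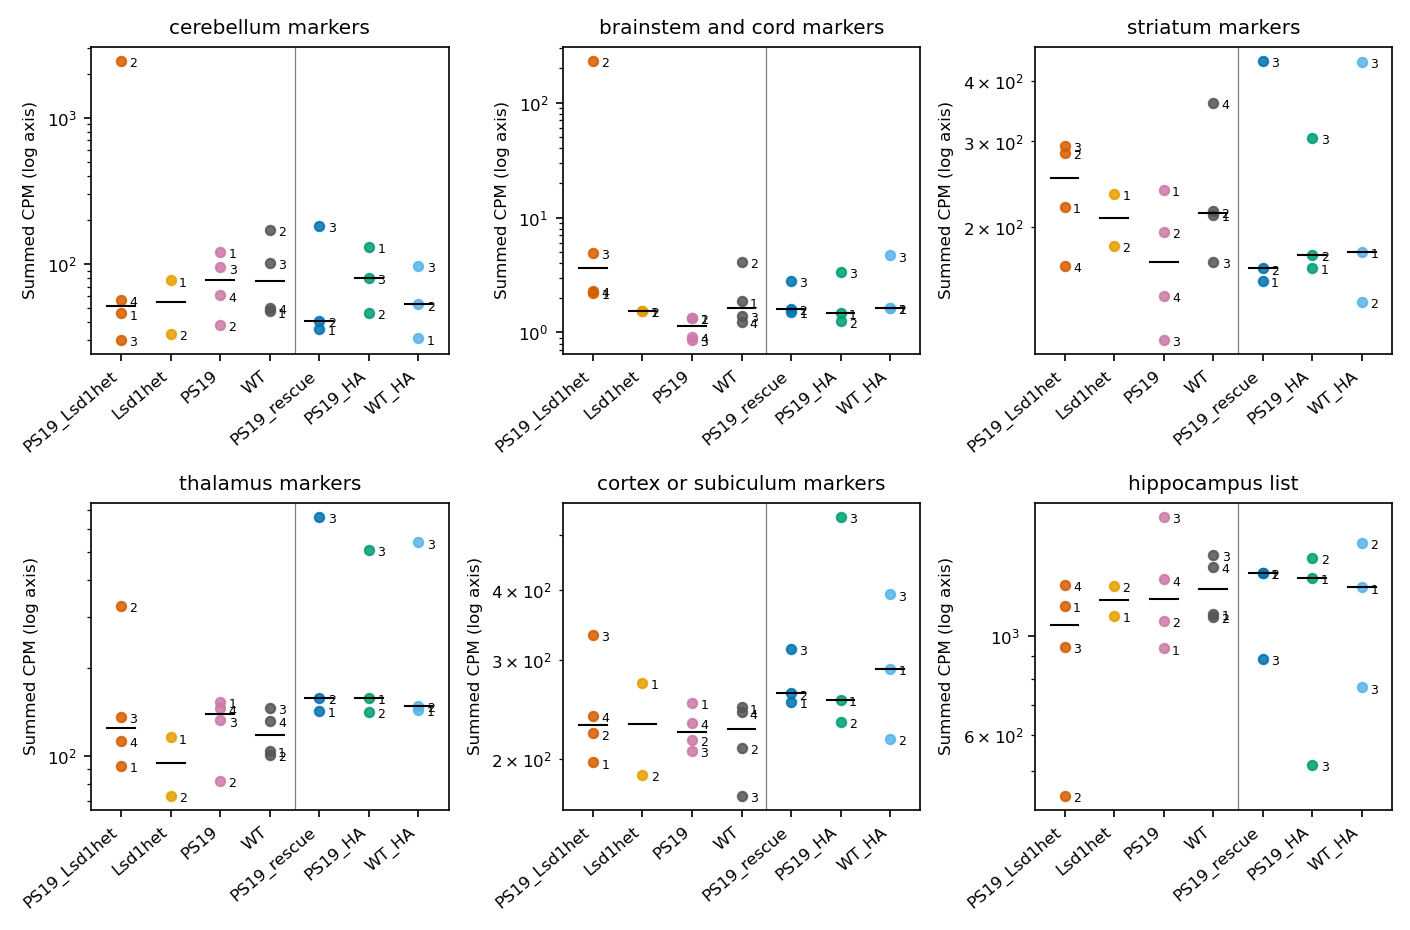
Summed CPM (log axis) of the members of each region and of the 12 hippocampal genes, with 1 point per library labelled by its replicate number, the groups along the horizontal axis and a black bar at each group's median. PS19_Lsd1het replicate 2 is the highest in cerebellum and brainstem and the lowest in hippocampus, and replicate 3 of each 11-month group is the highest of its group in striatum and thalamus and the lowest in hippocampus.

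At 11 months the thalamic members divided each group in the same way: replicate 3 was high and replicates 1 and 2 were low. Tcf7l2, a Wnt pathway transcription factor that specifies thalamic neurons (chromosome 19, 55741820 to 55933654), had 6.51, 10.1 and 81.5 CPM in PS19_rescue replicates 1 to 3 and 7.87, 9.08 and 32.8 CPM in PS19_HA, against 5.31, 12.5 and 66.8 CPM in WT_HA. At 9 months it had 4.89 to 9.50 CPM in all 14 libraries. Slc17a6 had 39.4, 31.6 and 168 CPM in PS19_rescue and 21.97, 16.4 and 73.4 CPM in PS19_HA, against 31.05, 32.1 and 154 CPM in WT_HA. Tnnt1, a troponin T gene that thalamic neurons transcribe in the mouse, had 1.09, 2.25 and 16.9 CPM in PS19_rescue and 0.921, 1.38 and 12.6 CPM in PS19_HA, against 0.927, 1.99 and 9.61 CPM in WT_HA. Replicate 3 lay above the other libraries of its group for each of these genes in each group.

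Replicate 3 over the mean of replicates 1 and 2 had a median ratio over the 6 thalamic members of 4.72 in PS19_rescue, 3.72 in PS19_HA and 4.70 in WT_HA. The ratios ran from 3.35 to 10.1 in PS19_rescue and from 1.83 to 11.0 in PS19_HA, and from 1.88 to 7.49 in WT_HA. All 6 genes were highest in replicate 3 in all 3 groups, as were 9.73% of all genes with reads. Within single groups replicate 3 was the highest for 36% of all genes in PS19_rescue and 32% in PS19_HA, and 32.1% in WT_HA. For 5 of the 6 the 3 highest of all 23 libraries were these 3, the exception being Prkcd, for which PS19_Lsd1het replicate 2 ranked above WT_HA replicate 3. Lef1, like Tcf7l2 a transcription factor of the Wnt pathway, had the smallest range, from 2.78 CPM in PS19_Lsd1het replicate 3 to 16 CPM in PS19_rescue replicate 3. In a second list of 12 thalamic genes, 9 were highest in replicate 3 of all 3 groups. Its members include Amotl1, with 134 CPM in PS19_rescue replicate 3, 112 CPM in PS19_HA replicate 3 and 103 CPM in WT_HA replicate 3, against 26.5 to 70.6 CPM in the other 20 libraries.

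The Tnnt1 window (chr7:4515926-4516225, minus strand, inside its GENCODE gene) is shown since the gene was highest in the same 3 libraries as Tcf7l2. Capitals mark 1 GGGCGG and 1 TATAAA.
Tnnt1: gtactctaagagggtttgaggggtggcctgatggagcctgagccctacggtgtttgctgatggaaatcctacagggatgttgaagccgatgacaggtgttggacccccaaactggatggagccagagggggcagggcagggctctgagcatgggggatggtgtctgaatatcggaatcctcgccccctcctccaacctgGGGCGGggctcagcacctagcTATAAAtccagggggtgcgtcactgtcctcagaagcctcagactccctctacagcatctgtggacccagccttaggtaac

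The striatal members showed the same replicates at 11 months and another pair of libraries at 9 months. Drd1, the dopamine receptor of direct-pathway medium spiny neurons (chromosome 13, 54051183 to 54055705), had 3.96, 1.02, 21.9 and 5.13 CPM in PS19_Lsd1het, 4.07 and 2.39 CPM in Lsd1het and 3.20, 2.07, 4.01 and 6.33 CPM in PS19, against 4.24, 2.51, 12.6 and 19.2 CPM in WT. At 11 months it had 5.01, 8.14 and 27.6 CPM in PS19_rescue and 8.10, 4.40 and 20.4 CPM in PS19_HA, against 11.1, 6.92 and 28.3 CPM in WT_HA. Adora2a, the adenosine receptor of indirect-pathway neurons, had 16.1 CPM in PS19_Lsd1het replicate 3 and 14.8 CPM in WT replicate 4, with the other 12 libraries of 9 months between 0.987 and 3.77 CPM. It had 17.3 CPM in PS19_rescue replicate 3 and 11 CPM in PS19_HA replicate 3, against 25.4 CPM in WT_HA replicate 3.

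For 5 of the 7 striatal members, Drd1, Adora2a, Rgs9, Pde10a and Gpr6, the 5 highest of all 23 libraries were PS19_Lsd1het replicate 3, WT replicate 4 and replicate 3 of PS19_rescue, PS19_HA and WT_HA. Rgs9, which speeds the shut-off of G protein signals downstream of Drd2, had 35.6 to 54.1 CPM in these 5 libraries and 7.96 to 25.1 CPM in the other 18. Pde10a, a phosphodiesterase of medium spiny neurons, had 128 to 223 CPM in the 5 and 77.3 to 112 CPM in the 18, and Gpr6, an orphan receptor, 3.81 to 6.03 CPM and 0.244 to 1.81 CPM. Ppp1r1b varied from 15.9 CPM in WT replicate 3 to 157 CPM in PS19_Lsd1het replicate 2 and did not follow the other members. The median ratio of replicate 3 to the mean of replicates 1 and 2 over the 7 genes was 4.2 in PS19_rescue and 2.39 in PS19_HA, and 3.81 in WT_HA, and all 7 were highest in replicate 3 in each group. In a second list of 16 striatal genes, 12 were highest in replicate 3 in all 3 groups, as were 9.73% of all genes with reads.

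The Drd2 window (chr9:49340153-49340452, plus strand) is shown since Drd2 has the lowest p of the striatal members between groups at 9 months, given further on. The window ends before the start of its GENCODE gene at 49340627. Capitals mark 2 GGGCGG on either strand, and the window holds 23 CpG sites and 70.3% G or C.
Drd2: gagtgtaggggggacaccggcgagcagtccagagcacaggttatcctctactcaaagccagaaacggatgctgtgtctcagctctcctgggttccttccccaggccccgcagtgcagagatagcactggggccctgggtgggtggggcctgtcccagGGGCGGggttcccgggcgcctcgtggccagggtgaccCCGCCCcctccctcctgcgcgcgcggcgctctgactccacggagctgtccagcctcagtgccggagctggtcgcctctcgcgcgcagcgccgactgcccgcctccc

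Cortical or subicular members varied less, and 3 of the 5 were highest of all libraries in PS19_HA replicate 3. Tshz2 was the lowest of its group there, at 7.40 CPM. Rorb, a nuclear receptor of layer 4 neurons, had 26.9, 29.7 and 48.9 CPM in PS19_rescue and 28.8, 36.8 and 108 CPM in PS19_HA, against 30.2, 32.4 and 55.4 CPM in WT_HA. Cux2, a homeobox gene of upper cortical layers, had 118 CPM and Lamp5, a membrane protein of upper layers and some interneurons, 113 CPM in PS19_HA replicate 3, against 33.7 to 44.3 CPM and 21.7 to 25.5 CPM in its other replicates. In the same library Tbr1, a transcription factor of deep-layer projection neurons, had 148 CPM, against 7.07 to 92.8 CPM in the others. Of the 14 genes of the second cortical and subicular list, 10 were highest of PS19_HA in replicate 3, beside 32% of all genes with reads. In that library 5 of the 14 were highest of the 23 libraries, a count whose share over all genes was not computed. Lmo4 and Fn1 of that list were highest in Lsd1het replicate 1 and PS19 replicate 1. Nts, a neuropeptide gene of that list named after its values were seen, had its lowest value in PS19_HA replicate 3, at 1.31 CPM. Hippocampal genes were low there: their sum was 516 CPM, the second lowest, and 9 of 12 were at or under the median of the 23 libraries divided by 2, where 2.64% of genes with a median of 1 CPM or more were. Rasgrf2, a Ras exchange factor of upper layers, ranged from 63.4 to 200.5 CPM, its highest value being 1.70-fold its median, and Pde10a never fell under 77.3 CPM. These genes were present in every hippocampal library and are less exclusive to their named region than the Hox genes or Fat2.

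**Figure D4:**
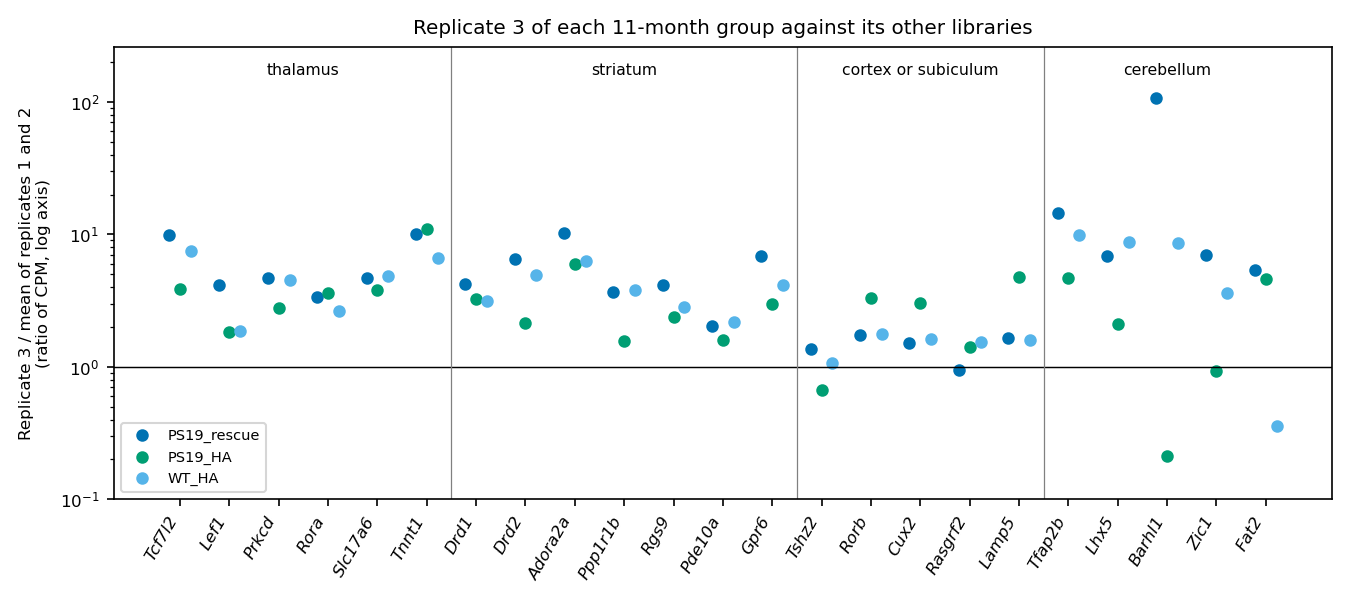
CPM in replicate 3 divided by the mean of replicates 1 and 2 of the same 11-month group (log axis), for 23 members grouped by region, with 1 point per group. Thalamic and striatal genes lie above 1 in all 3 groups, while Tfap2b, Lhx5 and Barhl1 are higher in PS19_rescue and WT_HA than in PS19_HA; the value of 107 for Barhl1 rests on 1 read in the other PS19_rescue libraries.

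The replicate 3 libraries of 11 months were not alike in every region. Tfap2b had 0.603, 1.56 and 15.7 CPM in PS19_rescue and 0.322, 0.222 and 1.27 CPM in PS19_HA, against 0.0843, 2.60 and 13.2 CPM in WT_HA. Lhx5 and Barhl1 showed the same: replicate 3 had 2.31 CPM of each in PS19_rescue and 0.381 and 0.0423 CPM in PS19_HA, against 2.12 and 2.48 CPM in WT_HA. Fat2 stayed at 2.64 CPM or less in these libraries, and the Hox members had at most 2 reads in any of them. Some genes of the second lists had the same pattern: Glra1 had 8.07 CPM in PS19_rescue replicate 3 and 0.592 CPM in PS19_HA replicate 3, against 7.78 CPM in WT_HA replicate 3, and Tal1 had 7.79 CPM in PS19_rescue and 3.09 CPM in PS19_HA, against 8.68 CPM in WT_HA. Pou4f1, a habenular transcription factor chosen after its values were seen, had 4.38 CPM in PS19_rescue and 0.211 CPM in PS19_HA, against 4.77 CPM in WT_HA. Others did not: Tph2, the serotonin synthesis enzyme of raphe neurons, also chosen after its values were seen, had 0.933 CPM in PS19_rescue replicate 3 and 2.33 CPM in PS19_HA replicate 3, against 0.896 CPM in WT_HA replicate 3. Replicate 3 was highest of its group for 7 of 20 second-list brainstem and cord genes in PS19_rescue, 7 in PS19_HA and 9 in WT_HA. For the 7 habenular genes the numbers were 5 in PS19_rescue, 3 in PS19_HA and 5 in WT_HA. Over all genes with reads the shares were 36% in PS19_rescue, 32% in PS19_HA and 32.1% in WT_HA. The counts of 7 of 20 thus lay near the shares of all genes. Summed over the 7 habenular genes, replicate 3 of PS19_rescue had 54.5 CPM, the lowest of its group, beside 58.0 and 61.5 CPM. Replicate 3 of PS19_HA had 48.7 CPM, between 43.1 and 52.3 CPM, and that of WT_HA 66.1 CPM, the highest of its group. Of the choroid plexus genes, all 12 were above replicates 1 and 2 in replicate 3 of PS19_rescue and of WT_HA, and all 12 were below them in replicate 3 of PS19_HA. Hippocampal sums were the lowest of their group in each replicate 3, at 888 CPM in PS19_rescue and 516 CPM in PS19_HA, against 767 CPM in WT_HA. What part the choroid plexus or hippocampal genes have in the members' levels was not tested.

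Between the study's groups, none of the members passed the quasi-likelihood test of edgeR at a Benjamini-Hochberg adjusted p under 0.05 in any of 8 comparisons, although 31 members could be tested at 9 months and 29 at 11 months. Hoxa4, Hoxa5 and Hoxb3 did not pass the filter on low counts, and at 11 months Barhl1 and Skor1 did not either. Over all genes the test called 1 of 20122 genes (0.00497%) for PS19 against WT, 1 (0.00497%) for PS19_Lsd1het against WT, 0 (0%) for PS19_Lsd1het against PS19 and 0 (0%) for Lsd1het against WT. At 11 months it called 3 of 19290 genes (0.0156%) for PS19_HA against WT_HA, 0 (0%) for PS19_rescue against PS19_HA and 4 (0.0207%) for PS19_rescue against WT_HA. Without PS19 replicate 2 it called 146 of 20144 genes for PS19 against WT, and without PS19_HA replicate 1 it called 8 for PS19_HA against WT_HA. At an unadjusted p under 0.05, members numbered 3, 9, 11 and 1 in the comparisons of 9 months and 1, 1 and 1 in those of 11 months, in the order above, beside 3.91%, 6.31%, 1.25%, 1.28%, 8.63%, 1.81% and 4.01% of all genes. For the difference between tau effects, given further on, the share of all genes was 0.569%. With the replicate number as a block, edgeR called 5 genes for PS19 against WT and 4 for PS19_Lsd1het against WT, none of them a member. For PS19_rescue against WT_HA it called 0. With that block, members at an unadjusted p under 0.05 numbered 4, 5, 8 and 0 at 9 months and 9, 6 and 4 at 11 months. Among all genes the numbers were 1539, 3465, 609 and 181 of 20122 at 9 months and 2294, 596 and 1182 of 19290 at 11 months. DESeq2 called 0.958%, 0.552%, 0.00502% and 0.00502% of all genes in the comparisons of 9 months and 0.628%, 0.0156% and 0.0934% in those of 11 months. Among the members it called 1, Tshz2 in PS19_HA against WT_HA. At 9 months it gave a p-value to 22 of the 31 members, and the members without one could not be called. Of the second cerebellar list it gave a p-value to 3 genes at 9 months, against 10 in edgeR. Over the second lists of all regions, with hippocampus and choroid plexus, edgeR and DESeq2 called 0 genes in any comparison, at 43 of 727 and 52 of 675 unadjusted p-values under 0.05.

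How far the group means rest on single libraries shows in the cerebellar members. In PS19_Lsd1het against WT their median log2 difference was 3.38, with 10 of 10 higher, and in PS19_Lsd1het against PS19 it was 4.08, with 10 of 10 higher. Without PS19_Lsd1het replicate 2 the same medians were -1.50, with 9 of 9 fitted genes lower, and -0.59, with 7 of 9 lower. The value of -1.50 still includes WT replicate 2. Its cerebellar sum was 171 CPM, against 47.4 to 102 CPM in the other WT libraries. Slc6a5, the member with the lowest p in both, had a log2 difference of 6.88 (SE 2.02, edgeR adjusted p = 0.519) from WT and 8.55 (SE 2.28, adjusted p = 1.00) from PS19. Fat2 had log2 differences of 4.34 (SE 2.13, adjusted p = 0.799) and 8.11 (SE 2.62, adjusted p = 1.00). In PS19 against WT, 9 of 10 cerebellar members were lower with a median log2 difference of -0.66, which became 0.00, with 5 of 9 higher, without WT replicate 2. Over all members the median log2 difference was 0.25 for PS19_Lsd1het against WT and 0.87 against PS19, beside 0.00 and -0.02 over all genes tested, and -0.38 and 0.05 without PS19_Lsd1het replicate 2.

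Of the striatal members at 9 months, the fitted levels of all 7 were lower in PS19 than in WT, with a median log2 difference of -1.35 beside -0.02 over all genes tested, and none passed the test. Drd2, the dopamine receptor of indirect-pathway neurons (chromosome 9, 49340627 to 49408177), had 4.44, 3.67, 3.08 and 3.07 CPM in PS19, against 4.85, 6.39, 8.38 and 14.4 CPM in WT, so the groups did not overlap. Its log2 difference was -1.42 (SE 0.46, edgeR adjusted p = 0.546, DESeq2 adjusted p = 0.145). Drd2 and Pde10a were the 2 of 31 members whose groups did not overlap in that comparison, beside 1.33% of all genes. Without WT replicate 4 all 7 remained lower and the median was -0.69. Of the 7, 6 were lower in Lsd1het than in WT, with a median of -1.47, and 6 of 7 in PS19_Lsd1het than in WT, with a median of -0.56. These comparisons share the WT libraries, so their directions are not independent.

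At 11 months the medians of thalamic and striatal members turned with single replicate 3 libraries. For thalamus in PS19_HA against WT_HA the median log2 difference was -0.13 with all libraries, 0.62 without WT_HA replicate 3 and -1.32 without PS19_HA replicate 3. With replicate 3 left out of every group it was -0.33. For striatum in PS19_rescue against PS19_HA it was 0.30, with 0.86 without PS19_HA replicate 3, -0.82 without PS19_rescue replicate 3 and -0.20 without all 3. The tau effect at 11 months minus that at 9 months called 0 of 20931 genes (0%) and no member, and 0 members had an unadjusted p under 0.05. The median log2 value of that difference was 0.31 over the members, beside 0.02 over all genes tested. It was 1.03 without WT_HA replicate 3 and -0.10 without PS19_HA replicate 3.

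Some members had groups that did not overlap, and since the members were chosen with these values known the counts are given as a description. In PS19_Lsd1het against PS19 they were Adamts18, Skor1 and Pde10a of 31, all higher, where 0.785% of all genes did not overlap. In PS19_Lsd1het against WT there were 0, where 5.93% of genes did not overlap. In Lsd1het against WT, Tfap2b and Drd2 were lower in each library of the first group (10.7% of genes), with 2 libraries against 4. In PS19_rescue against WT_HA, Pcp2 was higher and Adamts18 lower (11.3% of genes). In PS19_HA against WT_HA, Zic4 was higher and Tshz2 lower (14.1% of genes), and in PS19_rescue against PS19_HA, Tshz2 was higher (7.07% of genes). Some of these rest on few reads. Skor1 had 8, 482, 4 and 4 reads in PS19_Lsd1het, against 4, 4, 1 and 3 in PS19. Tfap2b had 6 and 9 reads in Lsd1het, against 8 to 44 in WT. Pcp2 had 11 to 21 reads in PS19_rescue, against 9 to 11 in WT_HA.

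Tshz2, a teashirt-family zinc-finger gene expressed in the subiculum and retrosplenial cortex (chromosome 2, 169633013 to 170071816), was the only member that DESeq2 called in any comparison. It had 14.6, 7.70 and 7.40 CPM in PS19_HA, against 21, 21.3 and 22.7 CPM in WT_HA, a log2 difference of -1.25 (SE 0.26, edgeR adjusted p = 0.454). DESeq2 gave -1.27 with an adjusted p of 0.00478, a call, and of the edgeR alternatives run, that without PS19_HA replicate 1 made the call as well (adjusted p = 0.0380). Over all alternatives run, DESeq2 included, its adjusted p ranged from 0.00478 to 0.842. PS19_rescue had 20.03, 19.1 and 26.6 CPM, all above PS19_HA and overlapping WT_HA, with log2 differences of 1.14 from PS19_HA (SE 0.26, edgeR adjusted p = 1.00, DESeq2 adjusted p = 0.162) and -0.11 from WT_HA (SE 0.25, edgeR adjusted p = 0.944). These comparisons share PS19_HA or WT_HA. Unlike the other cortical members it was not high in PS19_HA replicate 3. At 9 months it had 11.6, 8.77, 17.9 and 8.66 CPM in PS19_Lsd1het, 27.7 and 5.05 CPM in Lsd1het and 22.8, 17.1, 23.9 and 17.0 CPM in PS19, against 26.0, 11.2, 40.8 and 25.1 CPM in WT, with log2 differences from WT of -1.50 for PS19_Lsd1het (SE 0.53, adjusted p = 0.687) and -0.62 for PS19 (SE 0.52, adjusted p = 1.00). Annotated genes on the opposite strand overlap Tshz2, so its reads may include theirs.

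The Tshz2 window (chr2:169632259-169632558, plus strand) holds 1 GGGCGG on the minus strand, in capitals, and 2 CpG sites. It ends before the start of its GENCODE gene at 169633013, so these counts are of the window alone.
Tshz2: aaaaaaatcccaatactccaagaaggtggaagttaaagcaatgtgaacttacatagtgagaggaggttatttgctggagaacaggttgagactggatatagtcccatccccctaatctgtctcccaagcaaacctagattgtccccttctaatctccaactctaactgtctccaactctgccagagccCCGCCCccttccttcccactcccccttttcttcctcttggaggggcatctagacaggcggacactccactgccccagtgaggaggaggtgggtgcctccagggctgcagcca

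**Figure D5:**
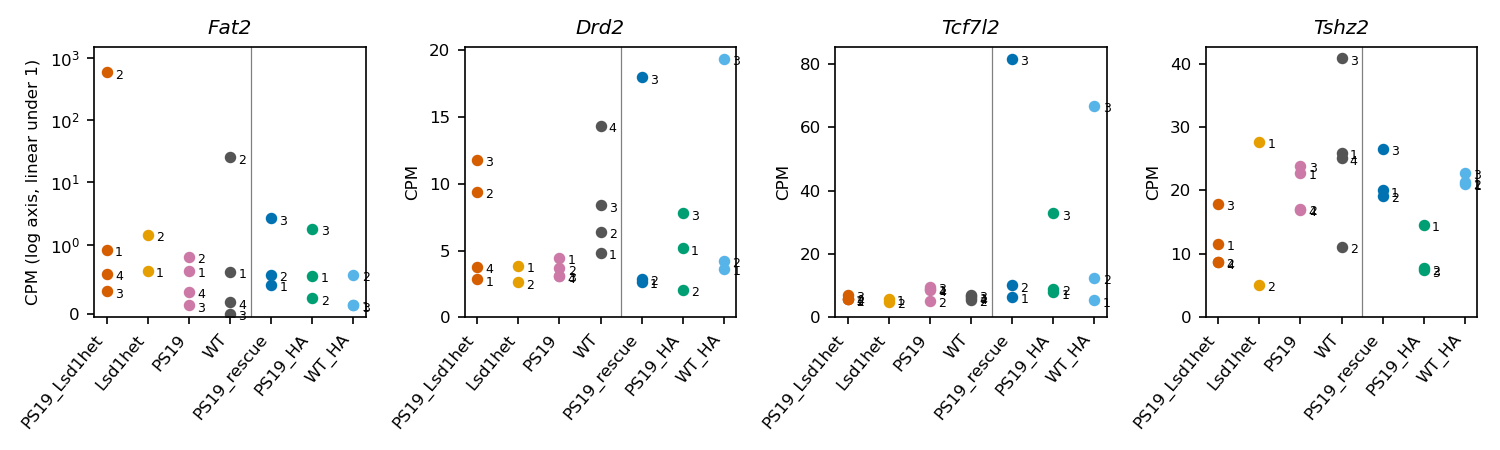
CPM of Fat2 (log axis above 1 and linear below), Drd2, Tcf7l2 and Tshz2 in every library, labelled by replicate number, with the groups along the horizontal axis. Fat2 is high in PS19_Lsd1het replicate 2 and WT replicate 2, Tcf7l2 in replicate 3 of the 11-month groups, and Tshz2 is lower in the 3 PS19_HA libraries, 7.40 to 14.6 CPM, than in WT_HA, 21 to 22.7 CPM.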

How the data were processed

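RNA-seq of poly(A)-selected hippocampal RNA gave 23 libraries in 7 groups, taken from the sample labels. Per the submitters' processing notes, FastQC 0.11.7, Trimmomatic 0.36.5, HISAT2 2.1.0, featureCounts 1.6.0.6 and DESeq2 2.11.40.2 were used on GRCm38. The release of the annotation, the use of strand and the counting of reads with several alignments are not stated there. The authors deposited whole-number counts per gene, with no normalization. From these counts CPM were computed as a gene's reads scaled to the library's total; intervals of CPM cover counting error only.

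GENCODE gene models on GRCm38 supplied symbols and positions for 54165 of the 54232 identifiers. An annotated gene overlaps 17 of the 34 members, whose counts are uncertain by that. Of the members, 26 had an entry in the RefSeq promoter table. The members, the second lists of region markers and the comparisons were chosen with earlier results of these data known. All 34 members are named; up to 4 genes of each second list with the highest mean CPM may be named, and others only as chosen after their values were seen.

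Counts were tested with edgeR 4.0.16 in R 4.3.3 (quasi-likelihood, TMM, robust, filterByExpr with a minimum count of 10 and total of 15). The 14 libraries of 9 months, the 9 of 11 months and, for the difference between tau effects, all 23 shared 1 fit each. Benjamini-Hochberg adjustment ran over all genes of a fit. DESeq2 1.42.0 was the second tool, and its undefined p-values stayed undefined. The fit was tested on simulated data.

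Replicate numbers were taken to pair libraries where deviations of same-numbered libraries from their group means correlated above 0.1 in every pair: PS19 with WT (0.485 to 0.807), PS19_Lsd1het with WT (0.301 to 0.524) and with PS19 (0.289 to 0.467), and PS19_HA (0.101 to 0.277) and PS19_rescue (0.111 to 0.444) with WT_HA. A PS19 library of another number correlated better, however, with each PS19_Lsd1het library. The same held for a WT library of another number with PS19_Lsd1het replicates 3 and 4. It also held for a WT_HA library of another number with PS19_rescue replicate 2. The pairing thus comes from the data, not from a label, and is uncertain. The block was fitted over all groups of a cohort, Lsd1het included. Alternatives were other size factors, no filter, no mitochondrial genes, the compared groups alone, the replicate block, each library left out, and, chosen after seeing the data, the libraries that stand apart left out together (PS19_Lsd1het replicate 2 and WT replicate 2 at 9 months, replicate 3 of each group at 11 months).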

Additional observations from a re-analysis of the deposited data

Results flagged for a closer look

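In groups of 4 libraries, a member was listed here when its highest or lowest library lay apart from the nearest other by a gap that chance gives about 1 time in 20. Over 96 such groups 25 were listed. The members were chosen from these values and share libraries, so the listing is a description, and groups of 2 or 3 libraries were not tested.

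Of the 25, 16 were PS19_Lsd1het replicate 2, each as the highest of its group: Fat2 at 587 CPM, Zic1 at 671, Zic2 at 176, Zic4 at 43.8, Cbln1 at 566, En2 at 127, Pcp2 at 192, Tfap2b at 46.8, Lhx5 at 16.9 and Barhl1 at 15.3 CPM among cerebellar members. Among brainstem and cord members they were Hoxa4 at 3.37 CPM, Hoxa5 at 8.29, Hoxb3 at 6.87, Slc6a5 at 177, Skor1 at 19.6 and Adamts18 at 15.8 CPM.

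WT replicate 2 was the highest WT library by such a gap for Fat2 at 25.4 CPM, Pcp2 at 8.17 CPM, Tfap2b at 1.87 CPM and Slc6a5 at 1.15 CPM. Striatal members gave the rest. Adora2a at 16.1 CPM and Gpr6 at 4.08 CPM stood apart in PS19_Lsd1het replicate 3, and Adora2a at 14.8 CPM, Pde10a at 176 CPM and Gpr6 at 4.44 CPM in WT replicate 4.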

How the results depend on the processing

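Of 120 recounts of the members called, 118 gave 0. The exceptions concern PS19_HA against WT_HA, where DESeq2 called 1 member, Tshz2, and where leaving out 1 library each gave 0 to 1 calls, the call being Tshz2 without PS19_HA replicate 1 (log2 difference -1.65). With the replicate number as a block, 0 members were called in every comparison. Of the recomputed log2 differences of named members, 108 kept their direction and side of the threshold, 2 passed it (both Tshz2, above) and 1 reversed. The reversal was the difference between tau effects for Fat2: -0.72 with the libraries that stand apart left out, against 5.34 with all libraries. WT replicate 2 is among those left out. That tally does not show how far directions rest on single libraries. Without PS19_Lsd1het replicate 2, members higher in PS19_Lsd1het than in WT numbered 8 of 30, against 19 of 31 with all libraries. The fitted cerebellar members then turned lower, as given above. With the libraries that stand apart left out, edgeR called 86 of 19148 genes for PS19_HA against WT_HA and 50 for PS19_rescue against PS19_HA, against 3 and 0 with all libraries, and 0 members. Leaving out 1 library each gave 1 to 146 genes for PS19 against WT, the highest without PS19 replicate 2, 0 to 8 for PS19_HA against WT_HA, and 0 to 3 for PS19_rescue against WT_HA, against 1, 3 and 4 with all libraries. With only the groups compared in the fit, edgeR called 22 genes for PS19_Lsd1het against WT, against 1, and with no filter on low counts 9 for PS19 against WT, against 1. The numbers of PS19_rescue and PS19_HA (0.0632 to 0.23) and of Lsd1het and WT (0.0316 to 0.0608) were not taken to pair libraries. Of 230 region sums recomputed on TMM library sizes or without mitochondrially encoded genes, 12 moved by more than 1 SD of their group, all in WT replicate 3, PS19 replicate 3 or Lsd1het. On both scales WT_HA replicate 3 takes the highest striatal sum from PS19_rescue replicate 3, and the highest library of the other 4 regions is unchanged. Hox members have too few reads outside PS19_Lsd1het replicate 2 for any comparison between groups, and nothing in the counts tells transcripts of another region from a change in hippocampal cells.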
